A study of Mus musculus with 6 samples.

Results

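The genes that write, copy and remove methyl groups on DNA were followed in mouse neural stem cells (NSCs) after hypoxia/reoxygenation (H/R). The 10 genes were chosen with earlier results of these data known, as were the pairs, lists and motifs below. All were taken by symbol from the 14665 protein-coding genes of the gene count table. They were Dnmt1, Uhrf1, Dnmt3a and Dnmt3b, which place or maintain methyl groups, Uhrf2, the paralog of Uhrf1, and Tet1, Tet2, Tet3, Tdg and Mbd4, which take part in their removal. All 10 passed the filter on low counts. The cells were wild-type C17.2, an immortalized mouse NSC line, so every library comes from 1 line. Total RNA depleted of ribosomal RNA was sequenced from 3 control libraries and from 3 libraries of the H/R group, whose cells were held at 5% oxygen for 12 h and then kept at standard oxygen for 48 h.

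In mammals most cytosines that precede a guanine (CpG) carry a methyl group. After each round of DNA replication UHRF1 binds the hemimethylated daughter DNA and brings in DNMT1, which copies the mark onto the new strand, whereas DNMT3A and DNMT3B set new marks. The TET dioxygenases oxidize 5-methylcytosine in a reaction that needs oxygen, iron and 2-oxoglutarate, and the glycosylase TDG then cuts out the oxidized base for base excision repair. MBD4 is a glycosylase that removes thymine left where a methylated cytosine was deaminated. In the developing brain, loss of DNMT1 from progenitors is known to harm the neurons they form, and DNMT3A and the TET enzymes are known for their part in neuronal differentiation. The RNA counts measure neither protein nor methylation, and fewer cells of a kind cannot be told apart from less RNA per cell.

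Gene counts summed to between 7267809 and 8371882 per control library and to between 15639751 and 16830389 per H/R library, so that values are given as CPM, the read count of a gene relative to a library total scaled by the TMM method. Of the neural stem cell markers, Nes (196 CPM in the control group), Vim (1221 CPM) and Sox2 (29.1 CPM) were present. Msi1 was low (9.65 CPM, and 6.77 CPM in the H/R group, edgeR, adjusted p = 0.194). Slc1a3 had no control count and 0, 4 and 10 counts in the H/R libraries, and Fabp7, Pax6 and Prom1 are not in the table analysed here. Nes rose by 0.76 on the log2 scale (edgeR, adjusted p = 3.26e-05), and the other tested markers did not pass. The 6 fibroblast and mesenchymal markers summed to between 6191 and 8886 CPM in the control libraries and to between 5722 and 7119 CPM in the H/R libraries, and of the 5 tested, Acta2 (248 ± 31.8 to 114 ± 14.3 CPM, edgeR, adjusted p = 1.08e-05) and Pdgfrb (251 ± 39.0 to 196 ± 24.5 CPM, adjusted p = 0.0358) fell. The microglial marker in the table reached at most 0.649 CPM. Neuron markers summed to 73.2 to 81.1 CPM in the control libraries and 32.8 to 37.9 CPM after H/R, nearly all from Map2. Those of astrocytes summed to 85.3 to 177 CPM and, after H/R, 13.8 to 17.2 CPM, nearly all from Aldoc. Gfap had no control count and 0, 11 and 12 counts in the H/R libraries. Aldh1l1 was at 0.0932 CPM in the control group and 0.250 CPM in the H/R group, and neither gene was tested. Those of the oligodendrocyte lineage summed to 113 to 145 CPM and, after H/R, 82.4 to 93.7 CPM. The neural stem cell markers summed to between 1402 and 1495 CPM and, after H/R, between 1641 and 1732 CPM. Most of this sum was Vim, at 1221 CPM in the control group and 1329 CPM in the H/R group (edgeR, adjusted p = 0.224). The part of these shifts in the results was not tested. Nothing in the labels says whether replicate libraries were grown as separate cultures, and every p-value here covers only the variation among the 6 libraries, which may be technical.

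Among the 10 genes, Uhrf1 and Dnmt1 rose and Tdg and Uhrf2 fell after H/R, while Dnmt3a, Dnmt3b, Tet1, Tet2, Tet3 and Mbd4 did not pass the test. The test was the two-sided quasi-likelihood test of edgeR with Benjamini-Hochberg adjustment over all 11104 genes tested, at an adjusted p under 0.05. These 4 of 10 genes (40%) compare with 37.8% of all genes tested, so the share of the group that changed was close to the background. By direction, 2 of 10 rose against 18.8% of all genes tested and 2 of 10 fell against 19.0%. Without scaling factors 5 of the 10 were higher and 1 lower, and 74.4% of the genes called were higher, against 49.7% with TMM. The median log2 fold change was 0.13 over the 10 genes and 0.010 over all genes tested. In 5 of the 10 genes the control and H/R libraries did not overlap, against 49.7% of all genes tested, with the H/R libraries above in 3 genes (25.7% of all genes) and below in 2 (24.0%).

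**Figure D1:**
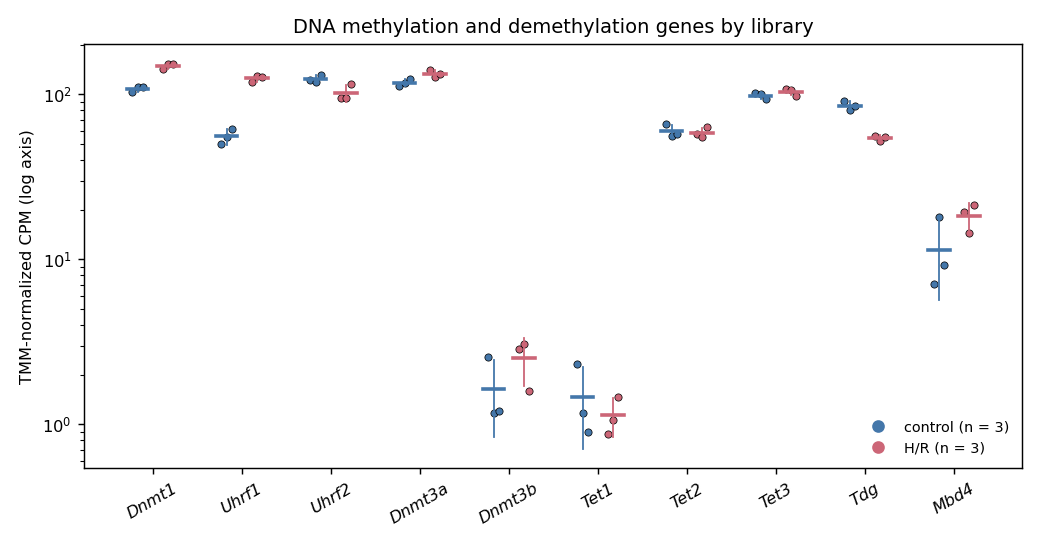
TMM-normalized CPM (log axis) of the 10 genes in the 3 control and 3 H/R libraries. Points are libraries, horizontal bars group means and vertical lines 1 SD. The H/R points of Uhrf1 and Dnmt1 lie above, and those of Tdg and Uhrf2 below, all control points, while Dnmt3b and Tet1 lie between 0.880 and 3.09 CPM in every library.

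Uhrf1, the reader of hemimethylated CpG, had the largest change of the 10 genes in absolute log2 terms. Its counts were 387, 426 and 414 in the control libraries and 2154, 2176 and 2170 after H/R, which are 49.9, 55.3 and 62.0 CPM against 118, 129 and 128 CPM. The lowest H/R library was well above the highest control library. The mean rose from 55.7 ± 6.05 CPM to 125 ± 5.85 CPM (SD, n = 3 each), a log2 fold change of 1.17 with a standard error of 0.11 (edgeR, adjusted p = 4.05e-06). Uhrf1 was also the single gene of the 10 that met the thresholds used by the study, an unadjusted p under 0.05 with a fold change of at least 2, which 11.2% of all genes tested met. The gene lies on the plus strand of chromosome 17, from 56303321 to 56323486 in mm10, and its merged exons span 4259 bases.

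Dnmt1, the maintenance methyltransferase, rose less. It was at 103, 111 and 112 CPM in the control libraries and at 142, 152 and 152 CPM after H/R, with no overlap between the groups. The mean went from 109 ± 4.40 to 149 ± 5.58 CPM, a log2 fold change of 0.46 with a standard error of 0.091 (edgeR, adjusted p = 0.00153). Dnmt1 lies on the minus strand of chromosome 9, from 20907209 to 20959888.

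Both genes are known to be transcribed most in S phase. Of 20 S-phase reference genes, such as the replication helicase genes Mcm4 and Mcm5 and the chromatin assembly gene Chaf1a, 18 rose and 2 did not pass, with a median log2 fold change of 1.08, against 18.8% of all genes tested called higher. Their summed level was 729 to 912 CPM in the control libraries and 1607 to 1826 CPM after H/R. Per 100 counts of these 20 genes in the same library, Uhrf1 had 6.22, 6.07 and 8.50 counts in the control libraries and 7.37, 7.59 and 6.995 after H/R. These Uhrf1 values overlapped between the groups. Dnmt1 had 12.9, 12.1 and 15.3 counts per 100 in the control libraries and 8.87, 8.92 and 8.34 after H/R, so that measured against the S-phase genes every H/R library was below every control library. Any gene that rises less than the sum of the S-phase genes is lower on this measure. The share of all genes with such a separation was not counted, so the values are not particular to Dnmt1. The part of the S-phase genes in the rise of Uhrf1 and Dnmt1 was not tested.

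The RefSeq start regions of the risers and fallers are shown because E2F factors drive many S-phase genes. Windows of 250 bases before to 50 bases after each annotated start were available for all 10 genes, 15 windows in all, and were searched on both strands for forms of the E2F motif. The first form was TTCCCGC, the second form was TTCGCGC, the third form was TTGCCGC and the last was TTGGCGC, and matches did not overlap one another. At least 1 form was in 9.57% of all 32851 windows and in 5 of the 15 windows of these genes. Among the 10 genes it was in windows of Uhrf1, Dnmt1, Uhrf2 and Mbd4, thus in both genes that rose and in 1 of the 2 that fell. Both windows of Uhrf1 hold a match, given here in capitals in the 250 bases before each start, from chr17:56303087-56303336 and chr17:56304063-56304312 of GRCm38.p6, plus strand:
Uhrf1, first start: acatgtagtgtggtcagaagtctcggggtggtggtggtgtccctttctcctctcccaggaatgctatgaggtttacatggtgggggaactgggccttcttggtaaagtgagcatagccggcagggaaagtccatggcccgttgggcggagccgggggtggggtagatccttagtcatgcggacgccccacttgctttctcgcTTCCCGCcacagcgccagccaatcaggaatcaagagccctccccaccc
Uhrf1, second start: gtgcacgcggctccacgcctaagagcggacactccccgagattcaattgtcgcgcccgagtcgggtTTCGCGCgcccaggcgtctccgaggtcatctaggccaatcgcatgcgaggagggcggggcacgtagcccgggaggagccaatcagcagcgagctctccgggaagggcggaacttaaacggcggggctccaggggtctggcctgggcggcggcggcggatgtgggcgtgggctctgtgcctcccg
Of the 3 windows of Dnmt1, the one at the start at 20952623 holds 3 matches and the others none. This window overlaps the first exon of transcripts that begin upstream of it, so its matches before the start lie inside that exon. The following minus-strand stretches, chr9:20952825-20952854 in the untranslated part of that exon and chr9:20952624-20952787 from its coding part into the intron, show the matches before the start in capitals, where the letters appear as the reverse complement of the motif:
Dnmt1, untranslated part: tggtttccgcgcGCGCGAAaaagccggggt
Dnmt1, coding part and intron: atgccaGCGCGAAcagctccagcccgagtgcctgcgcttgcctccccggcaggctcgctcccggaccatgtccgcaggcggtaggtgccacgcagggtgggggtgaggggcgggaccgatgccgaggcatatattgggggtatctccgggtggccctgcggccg
A match is a description of the letters and not evidence of binding. Of the 15 windows, 14 held more CpG than the median of 7 over all windows. Each E2F form contains a CpG, so the share over all windows is not a like reference for these windows.

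**Figure D2:**
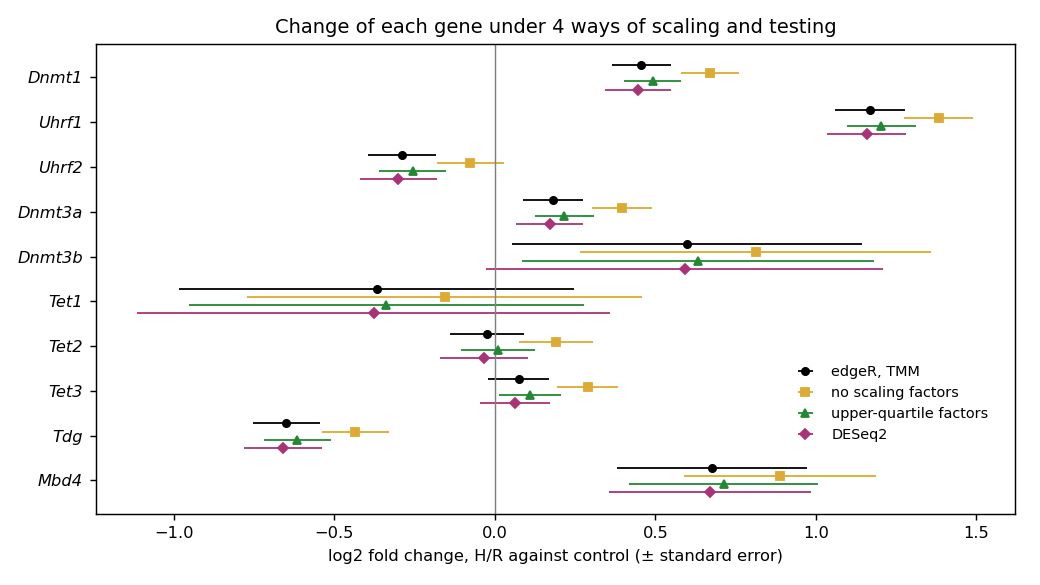
Log2 fold change of the 10 genes, H/R against control, with its standard error, under the TMM fit, without scaling factors, with upper-quartile factors and with DESeq2. The estimates of Uhrf1 and Dnmt1 lie above 0 and that of Tdg below 0 in all 4, and Uhrf2 moves from -0.29 with TMM to -0.077 without scaling factors.

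Uhrf2, a paralog of Uhrf1 that binds 5-hydroxymethylcytosine and does not replace UHRF1 in maintenance, went the other way from Uhrf1. It was at 123, 119.8 and 132 CPM in the control libraries and at 95.6, 94.8 and 116 CPM after H/R. The groups did not overlap, but H/R replicate 3 lay close to the lowest control library. The mean went from 125 ± 6.39 to 102 ± 11.8 CPM, a log2 fold change of -0.29 with a standard error of 0.11 (edgeR, adjusted p = 0.0457). The call was lost in 7 of 16 alternatives, with an adjusted p between 0.0172 and 0.582 over all 16. It was lost without control replicate 2 (adjusted p = 0.0703), without control replicate 3 (0.0911), without H/R replicate 1 (0.181) and without H/R replicate 2 (0.185), where the log2 fold change was between -0.39 and -0.24 over the 6 libraries left out in turn. Without scaling factors, which moves the median of all log2 fold changes from 0.010 to 0.22, it was -0.077 (adjusted p = 0.582), which is still below that median.

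The 250 bases before the only annotated start of Uhrf2 are shown beside those of Uhrf1, from chr19:30030263-30030512 of GRCm38.p6, plus strand, with the E2F match in capitals:
Uhrf2: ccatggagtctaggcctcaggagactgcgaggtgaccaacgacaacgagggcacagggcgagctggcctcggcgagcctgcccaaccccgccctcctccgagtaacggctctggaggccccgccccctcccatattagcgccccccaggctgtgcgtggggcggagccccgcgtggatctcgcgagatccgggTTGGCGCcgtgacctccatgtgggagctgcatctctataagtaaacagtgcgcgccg
The motif was thus present in the start region of a gene that rose and in that of its paralog, which did not.

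Within a library, the ratio of counts of a pair of genes does not depend on how the libraries are scaled. Counts also grow with exon length, so which gene of a pair has more counts is not an order of their levels. The log2 ratio of Uhrf1 to Uhrf2 was -1.30, -1.11 and -1.09 in the control libraries and 0.31, 0.45 and 0.14 after H/R, so Uhrf2 had more counts than Uhrf1 in every control library and fewer in every H/R library. The difference was 1.47 log2 units (exact permutation test, two-sided, p = 0.1, adjusted p = 0.175 over the 7 pairs computed). With 3 libraries against 3 this test cannot give a p under 0.1, so no pair could pass a threshold of 0.05. The log2 ratio of Uhrf1 to Dnmt1 went from a mean of -0.97 ± 0.11 to -0.25 ± 0.017, again without overlap (exact p = 0.1, adjusted p = 0.175).

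**Figure D3:**
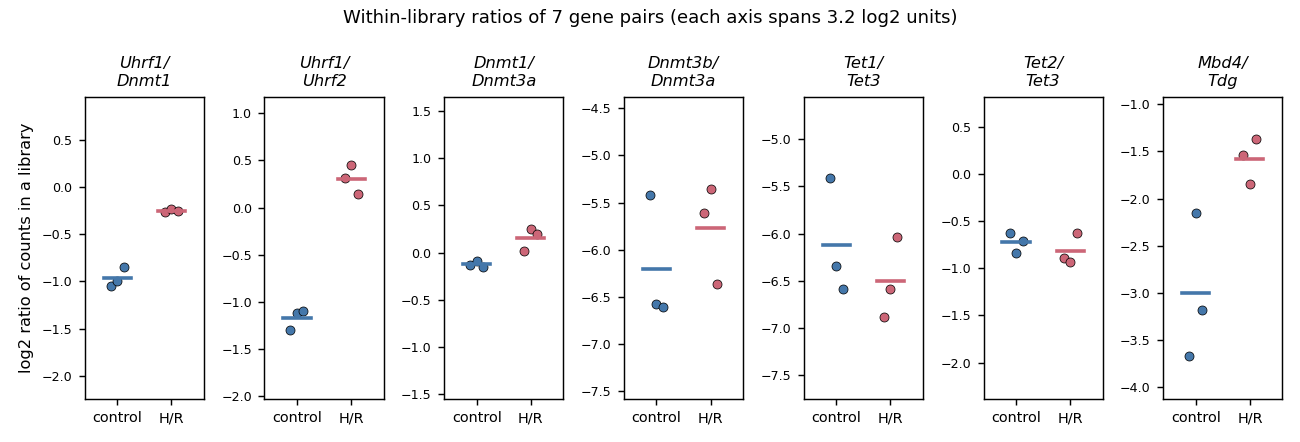
Log2 ratio of the counts of 7 gene pairs within each library (points), with group means (bars). Each axis spans 3.2 log2 units. The groups do not overlap for Uhrf1/Dnmt1, Uhrf1/Uhrf2, Dnmt1/Dnmt3a and Mbd4/Tdg, and overlap for Dnmt3b/Dnmt3a, Tet1/Tet3 and Tet2/Tet3.

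Of the de novo methyltransferases, Dnmt3a was abundant and Dnmt3b was near the limit of detection. Dnmt3a was at 113, 117 and 124 CPM in the control libraries and at 141, 127 and 133 CPM after H/R. Every H/R library was above every control library, but the log2 fold change of 0.18 (standard error 0.093, unadjusted 95% interval -0.020 to 0.38) did not pass (edgeR, adjusted p = 0.144). Without scaling factors it was 0.40 (adjusted p = 0.00393). A processed pseudogene, Dnmt3a-ps1 on chromosome 3, is annotated, and the counts of Dnmt3a are uncertain to the extent that reads were shared with it.

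The log2 ratio of Dnmt1 to Dnmt3a was -0.13, -0.085 and -0.15 in the control libraries and 0.014, 0.25 and 0.20 after H/R. Dnmt3a had slightly more counts than Dnmt1 in each control library and fewer in each H/R library. The difference of 0.28 log2 units had an exact p of 0.1 by the permutation test (adjusted p = 0.175). The merged exons of Dnmt3a (16642 bases) are longer than those of Dnmt1 (7377 bases). Per kilobase of them Dnmt1 was above Dnmt3a in both groups.

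Dnmt3b had 20, 9 and 8 counts in the control libraries and 52, 52 and 27 after H/R, which are 2.58, 1.17 and 1.20 CPM against 2.86, 3.09 and 1.59 CPM. The groups overlapped, and the log2 fold change of 0.60 had an unadjusted 95% interval from -0.58 to 1.78 (edgeR, adjusted p = 0.420). With so few counts, changes of a size within this interval could not be told from none. Its catalytically inactive cofactor Dnmt3l was at 0.0932 CPM in the control group and 0.172 CPM in the H/R group and was not tested.

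None of the 3 TET genes passed the test in edgeR, and none had an unadjusted p under 0.05 there or an adjusted p under 0.05 by DESeq2. Tet3 was the most abundant, at 102, 100.3 and 93.5 CPM in the control libraries and 107, 106 and 98.0 CPM after H/R. Its log2 fold change of 0.075 had an unadjusted 95% interval from -0.13 to 0.28 (edgeR, adjusted p = 0.571). Without scaling factors the value was 0.29 (adjusted p = 0.0268), near the shift of 0.22 of all genes.

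Tet2 was at 65.7, 56.0 and 57.2 CPM in the control libraries and at 57.5, 55.2 and 63.3 CPM after H/R. The libraries of the groups were intermixed, with a log2 fold change of -0.024 and an unadjusted 95% interval from -0.27 to 0.22 (edgeR, adjusted p = 0.889). The value was above 0 without scaling factors (0.19), with upper-quartile factors (0.0096), without control replicate 1 (0.051) and without H/R replicate 2 (0.019).

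Tet1, the TET gene best known from embryonic stem cells, had 18, 9 and 6 counts in the control libraries and 16, 18 and 25 after H/R, between 0.880 and 2.32 CPM in all. Its log2 fold change of -0.37 had an unadjusted 95% interval from -1.70 to 0.96 (edgeR, adjusted p = 0.672), so changes of a size within this interval could not be told from none, and the value was 0.13 without control replicate 1. The log2 ratios of Tet1 to Tet3 (difference -0.39, exact permutation p = 0.5) and of Tet2 to Tet3 (difference -0.098, exact permutation p = 0.4) overlapped between the groups, with adjusted p values of 0.5 and 0.467 over the 7 pairs.

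Tdg, the glycosylase that excises oxidized methylcytosine, fell. It was at 91.1, 80.4 and 84.6 CPM in the control libraries and at 56.0, 52.0 and 55.2 CPM after H/R, so the groups were far apart. The mean went from 85.4 ± 5.40 to 54.4 ± 2.08 CPM, a log2 fold change of -0.65 with a standard error of 0.10 (edgeR, adjusted p = 3.11e-04). Tdg lies on the plus strand of chromosome 10, from 82629828 to 82650799. Its last 367 exon bases, 6.83% of its merged exons, also belong to exons of Glt8d2 on the minus strand, which rose from 24.9 ± 4.43 to 106 ± 6.77 CPM. The strand setting of the counting is not given in the sources used here, and without strand the reads of the shared bases cannot be told apart. A processed pseudogene, Tdg-ps on chromosome 15, adds to the uncertainty of the Tdg counts.

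The window of Tdg holds none of the E2F letters. It holds the hypoxia response core ACGTG, searched on both strands and present in 19.6% of all windows, at 2 places, one of them the palindrome CACGTG read on both strands. The other genes of the 10 with this core were Uhrf1, Dnmt3a, Tet2 and Mbd4, and it was in 5 of the 15 windows. The core contains a CpG, so here too the share over all windows is not a like reference. The 250 bases before the start, chr10:82629588-82629837 of GRCm38.p6, plus strand, are shown with that core in capitals:
Tdg: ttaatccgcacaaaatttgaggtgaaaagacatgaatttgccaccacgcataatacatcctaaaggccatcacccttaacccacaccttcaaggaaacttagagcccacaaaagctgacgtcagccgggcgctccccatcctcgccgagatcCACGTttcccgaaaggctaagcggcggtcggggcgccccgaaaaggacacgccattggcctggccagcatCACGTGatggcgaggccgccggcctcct
The core was present in windows of a gene that rose, of the gene that fell most and of 3 genes that did not pass.

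Mbd4, which acts on the same kind of mismatch as Tdg, had 55, 139 and 62 counts in the control libraries and 351, 244 and 363 after H/R. At 7.09, 18.1 and 9.28 CPM against 19.3, 14.5 and 21.4 CPM, control replicate 2 lay among the H/R libraries and the other two control libraries below all of them. The log2 fold change of 0.68 (standard error 0.30) did not pass (edgeR, adjusted p = 0.0895). Without control replicate 2 it was 1.16 (adjusted p = 0.00560), and over the 16 alternatives the adjusted p was between 0.00560 and 0.259. An antisense gene, Gm44206, shares 264 exon bases with Mbd4, 5% of its merged exons.

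The log2 ratio of Mbd4 to Tdg was -3.67, -2.15 and -3.18 in the control libraries and -1.53, -1.84 and -1.37 after H/R. All H/R libraries were above all control libraries, by a mean of 1.42 log2 units (exact permutation p = 0.1, adjusted p = 0.175). Tdg nevertheless had the larger count in all 6 libraries.

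Levels of different genes were compared as CPM per kilobase of merged exons. The merged exons take in every annotated transcript, coding or not, so the order of the genes and the sums below depend on the annotation. In the control group Tdg (15.9), Dnmt1 (14.7), Uhrf2 (14.5) and Uhrf1 (13.1) came first, and neighbors in this order overlapped between libraries. Dnmt3a (7.09), Tet3 (5.90), Tet2 (3.53) and Mbd4 (2.17) followed, of which Tet2 and Mbd4 overlapped, and Dnmt3b (0.323) and Tet1 (0.0946) came last. In the H/R group the order was Uhrf1 (29.4), Dnmt1 (20.2), Uhrf2 (11.9), Tdg (10.1), Dnmt3a (8.04), Tet3 (6.21), Mbd4 (3.48), Tet2 (3.48), Dnmt3b (0.492) and Tet1 (0.0738), and of neighbors in this order only Mbd4 and Tet2 overlapped. The first 4 levels were thus not resolved from their neighbors in the control group, while in the H/R group the libraries of Uhrf1, Dnmt1, Uhrf2 and Tdg were separate in that order.

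Summed per kilobase, Dnmt1, Dnmt3a, Dnmt3b, Uhrf1 and its paralog Uhrf2 reached 47.3, 49.2 and 52.7 in the control libraries and 67.3, 70.3 and 72.4 after H/R. The 5 genes of removal summed to 28.4, 27.8 and 26.5 in the control libraries and 24.0, 22.1 and 24.0 after H/R. The ratio of the sums was 1.66 to 1.99 in the control libraries and 2.81 to 3.18 after H/R. These sums are a description without a test, and they are dominated by Uhrf1, Dnmt1, Uhrf2 and Tdg.

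For each gene that passed, the 3 genes with the most similar profile were found by the root mean square distance of centered log2 CPM over the 6 libraries. Nearest to Uhrf1 were Gnptab, Cd109 and Sc5d, with distances of 0.0291, 0.0587 and 0.0662 log2 units. Nearest to Dnmt1 were Aif1l, Ankrd40 and Slc25a5 (0.0356 to 0.0409), nearest to Uhrf2 Xrcc5, Arid4b and Ptp4a2 (0.0341 to 0.0375), and nearest to Tdg Zscan26, C030046E11Rik and Tmed10 (0.0330 to 0.0412). With 2 groups in 6 libraries such a likeness rests mostly on the difference between the groups.

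Genes that act with the maintenance machinery moved in both directions. Of 15 listed partners 12 were tested, of which 5 rose, 2 fell and 5 did not pass, with a median log2 fold change of 0.39, where 18.8% of all genes tested rose and 19.0% fell. Pcna, the replication clamp that holds DNMT1 at the fork, rose by 0.99 on the log2 scale (adjusted p = 1.25e-05), and Hells, the remodeler that opens DNA for methylation, by 1.11 (adjusted p = 5.31e-05). Its cofactor gene Cdca7 rose by 0.95, the related Cdca7l by 0.73 and Lig1, the ligase of the lagging strand, by 0.52 (edgeR, adjusted p of 7.31e-04, 5.36e-04 and 0.0175). Zfp57, which protects methylation at imprinted regions, went from 8.57 ± 1.03 to 2.08 ± 0.674 CPM (log2 fold change -2.05, adjusted p = 7.58e-04). Trdmt1, the DNMT2 homolog that methylates transfer RNA and not DNA, changed by -0.95 (adjusted p = 0.0212). Pcna and Lig1 also serve DNA replication itself. The summed CPM of the list was 983 to 1070 in the control and 1195 to 1361 in the H/R libraries.

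Among the proteins that bind methylated CpG, 8 of 9 genes tested did not pass in edgeR (37.8% of all genes passed), and Zbtb38, a zinc finger reader, fell by 0.28 on the log2 scale (adjusted p = 0.0374). The median over the list was -0.062.

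Of 14 tested genes of base excision repair, other glycosylases among them, 2 rose (18.8% of all genes tested), 2 fell (19.0%) and 10 did not pass, with a median of -0.065. Neil3, a glycosylase of proliferating cells, rose by 1.25 on the log2 scale and Smug1, a uracil glycosylase, by 0.86 (edgeR, adjusted p of 3.95e-04 and 0.00264). Lig3, the ligase of short-patch repair, changed by -0.50 (adjusted p = 0.00230).

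Among 8 tested TET partners and deaminases 2 fell and 6 did not pass, against 37.8% of all genes called and 19.0% called lower, with a median of -0.13. Gadd45a, which is linked to active demethylation and to the stress response, changed by -0.77 (adjusted p = 4.37e-05) and Ogt, the O-GlcNAc transferase that binds TET proteins, by -0.45 (adjusted p = 0.00160). Of 8 genes that supply or use 2-oxoglutarate, the cosubstrate of the TET enzymes, 1 rose, 2 fell and 5 did not pass, again against 37.8% of all genes called. The mitochondrial Idh2 went from 97.8 ± 25.1 to 37.3 ± 3.79 CPM (log2 fold change -1.39, adjusted p = 3.26e-05) and Idh3g changed by -0.65 (adjusted p = 0.00752), whereas the cytosolic Idh1 rose by 0.55 (adjusted p = 0.00480). The median of these 8 genes was -0.17.

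In the methionine cycle, which supplies the methyl donor S-adenosylmethionine, 2 of 11 tested genes rose, 2 fell and 7 did not pass, which is close to the 37.8% called among all genes, with a median of -0.044. Mat2a, the donor's synthase in most tissues, was at 449.7 ± 31.5 and 458 ± 22.3 CPM (adjusted p = 0.842), and its regulatory subunit gene Mat2b rose by 0.36 (adjusted p = 0.0124). Amd1, which draws the donor into polyamine synthesis, rose by 0.35 (adjusted p = 0.00641). Ahcyl1 changed by -0.88 (adjusted p = 4.95e-06), and Ahcy, which hydrolyzes the product of methylation, by -0.31 (adjusted p = 0.0420).

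**Figure D4:**
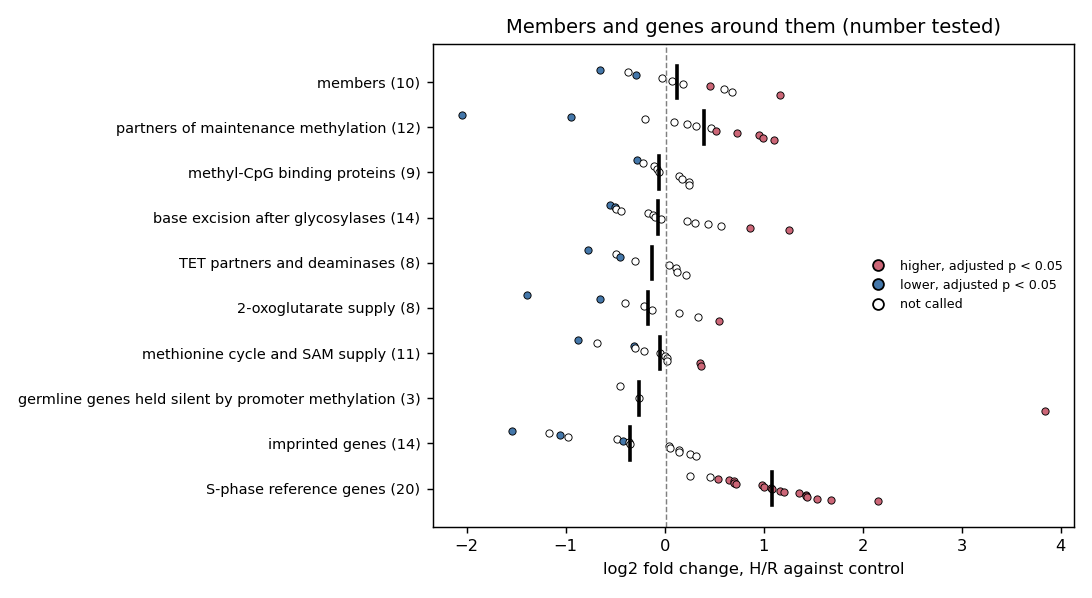
Log2 fold change, H/R against control, of the 10 genes (first line) and of the tested genes of 9 lists. Filled points passed at an adjusted p under 0.05, bold bars are list medians, and the dashed line is the median of all genes tested (0.010). The S-phase genes have a median of 1.08, and the medians of the other lists lie between -0.35 and 0.39.

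The lncRNA table counts transcripts, among them 24 at loci of these genes, with none listed for Dnmt1 or Tet2. Those tested belong to Dnmt3a, Mbd4, Tdg, Tet3 and Uhrf2, so the result does not cover Uhrf1 or Dnmt1. The table classes all 10 that were tested as overlapping exons of the gene on its own strand, so that reads may be counted for both, and GENCODE lists 1 of them, at Mbd4, as protein-coding. None of the 10 passed in edgeR at an adjusted p under 0.05, against 4.93% of the 6779 transcripts tested, and 1 had an unadjusted p under 0.05. This was ENSMUST00000134518, a 3231-base retained-intron transcript of Uhrf2, chosen for mention after its values were seen. It had 260, 209 and 158 counts in the control libraries and 233, 237 and 295 after H/R, whose totals are larger, and a log2 fold change of -0.69 with a standard error of 0.21 (adjusted p = 0.0657). The value for the Uhrf2 gene was -0.29, and 1 of the 9 annotated Uhrf2 transcripts is coding. Another retained-intron transcript of Uhrf2, ENSMUST00000137368, had a value of 0.65 (adjusted p = 0.495). The coefficient of variation between replicates was 0.405 in this table and 0.144 in the gene table, and transcript values are correspondingly less precise.

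**Figure D5:**
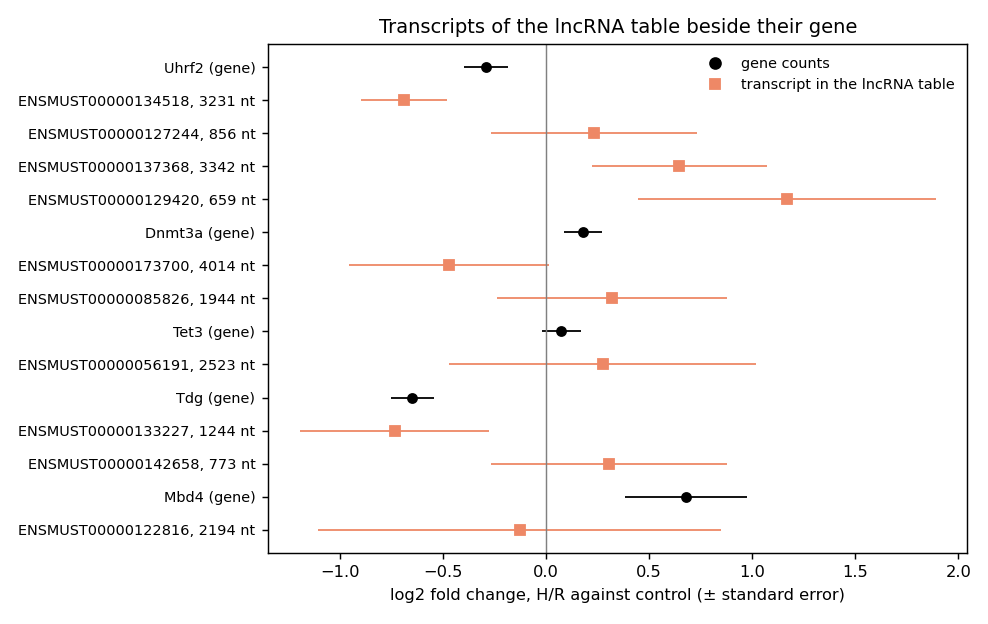
Log2 fold change, H/R against control, with its standard error, of the 10 tested transcripts of the lncRNA table (squares) and of the gene at their locus (circles). The transcripts have wider errors than their genes, and the 4 transcripts of Uhrf2 lie on both sides of 0, from -0.69 to 1.17.

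Of the 2805 circular RNAs in the third table, 1 came from these genes. It joins exonic sequence of Uhrf2, chr19:30039064-30039297, over 234 bases. It had 3 junction reads in H/R replicate 2 and 0 in the other 5 libraries, so no difference between the groups was detectable at this depth.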

How the data were processed

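The authors' raw counts per gene were deposited, made per the labels with cutadapt 1.9.3, HISAT2 2.0.4 (build mm10) and HTSeq 0.9.1. The deposited lncRNA table holds counts per transcript and the circRNA table counts of junction reads after STAR 2.5.1b. A further 18 columns of per-sample values and the authors' own fold changes and p-values were not used.

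The whole gene table was fitted with edgeR 4.0.16 (filterByExpr, TMM, glmQLFit, glmQLFTest) without a covariate, with p adjusted over 11104 genes, and the 23098 transcripts of the lncRNA table likewise. Ratios of pairs had 0.5 added to each count. Coordinates are from GENCODE vM21, which holds 14495 of the gene IDs. The scripts were tested on simulated data. Replicate numbers did not pair the samples (correlations of deviations of 0.0387, 0.00937 and 0.0286). No replicates were duplicates. All 10 genes are named, and of each list up to 3 per direction by adjusted p, apart from a gene that is not reported here. Other genes (marker genes, Mat2a, Dnmt3l, Igf2r, Glt8d2, Lig1, Cdca7, Brdt, Taf7l) were named after values were seen. The members, pairs, lists and motifs were chosen with earlier results of these data known.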

Additional observations from a re-analysis of the deposited data

How the results depend on the processing

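Uhrf1, Dnmt1 and Tdg kept their direction and their call in all 16 alternatives, with log2 fold changes of 1.09 to 1.38, 0.42 to 0.67 and -0.70 to -0.44. Tried were edgeR's exact test, DESeq2 1.42.0, scaling by RLE, by upper quartiles or not at all, no filter, 1 CPM in 3 libraries, thinned H/R libraries, the replicate number as a block, each of 6 libraries left out and, added after the data were seen, offsets for transcript length and GC content. Without scaling factors 3704 genes were higher and 1272 lower, and of the 10 genes 5 were higher and 1 lower, with Dnmt3a, Tet3 and Mbd4 called higher, Uhrf2 no longer called and Tet2 reversed to 0.19. Of called genes 74.4% were then higher, against 49.7% with TMM, since that setting leaves the shift of 0.22 in place. With upper-quartile factors, where 37.9% of all genes were called, 1 of the 10 was lower, 2 were higher and Tet2 was at 0.0096, and without a filter, where 29.7% were called, 1 was lower and 3 higher, with Mbd4 called. At the study's thresholds 646 genes were higher and 596 lower, and of the 10 genes 1 was higher and 0 lower. With 1 library left out, 1571 to 2261 genes were higher and 1622 to 2313 lower, and of the 10 genes 2 to 3 were higher and 1 to 2 lower. Without control replicate 1, Tet1 was at 0.13, within a range of -0.62 to 0.13, and Tet2 at 0.051, within a range of -0.081 to 0.051, and without H/R replicate 2 Tet2 was at 0.019. Tet1 could not be tested without H/R replicate 3. The replicate block gave 2039 genes higher and 1998 lower and the same counts of 2 higher and 2 lower among the 10, and it changed no call of these genes. For the transcripts of the loci, no scaling factors, 1 CPM in 3 libraries, the block and each library left out were run, and none passed under these. The cause of a lost call was not tested. Depth limits Dnmt3b and Tet1, which had at most 52 counts in any library.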

Other observations

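Of 27 genes listed as imprinted, 14 were tested, of which 3 fell and 11 did not pass in edgeR at an adjusted p under 0.05. Of all genes tested 19.0% were called lower and 18.8% higher. The median log2 fold change of the 14 was -0.35, against 0.010 for all genes tested. Peg10 went from 201 ± 10.4 to 96.4 ± 6.14 CPM (log2 fold change -1.06, adjusted p = 2.86e-06), Plagl1 from 29.8 ± 9.81 to 10.2 ± 1.88 CPM (-1.54, adjusted p = 2.47e-04) and Sgce, the neighbor of Peg10, from 82.9 ± 3.93 to 61.8 ± 3.28 CPM (-0.42, adjusted p = 0.00556). Igf2r was at 1227 ± 97.6 and 1357 ± 50.9 CPM (adjusted p = 0.186). The counts do not tell the parental alleles apart.

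Of 18 germline genes that promoter methylation is known to hold silent in somatic cells, 10 were in the table and 3 had enough counts to be tested. Sycp1, a component of the synaptonemal complex of meiosis, had 2, 0 and 0 counts in the control libraries and 23, 17 and 34 after H/R, whose totals are larger. It was the single one called (log2 fold change 3.84, edgeR, adjusted p = 0.0111), where 18.8% of all genes tested were called higher. Its fitted fold change rests on 2 control counts in all. Sycp1 passed the filter on low counts only through its H/R libraries. Genes low in both groups were not tested, so the call says nothing about germline genes as a set. Brdt (8.20 ± 0.712 and 6.02 ± 3.96 CPM, adjusted p = 0.403) and Taf7l (1.84 ± 0.899 and 1.54 ± 0.0603 CPM, adjusted p = 0.748) did not pass.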
